A study of Arabidopsis thaliana with 21 samples.

Results

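HSP101 (AT1G74310), HOP3 (AT4G12400), ROF2 (AT5G48570) and Fes1B (AT3G53800) encode a protein disaggregase and 3 co-chaperones of Hsp70 and Hsp90. The 4 genes were chosen by name, with earlier results of these data known. Each was represented by 1 probe set, 4 of the 31329 probe sets analysed and 4 of the 17048 genes that could be named. HOP3, ROF2 and Fes1B were named by the annotation of the array platform. HSP101 was named only through a supplementary list, which holds transcripts found changed in one comparison or more. Whether this gene could be followed at all therefore depended on a change, and its calls are given as a description and not weighed against the share of probe sets called.

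Transcript levels were measured on whole-transcript arrays in rosettes of Arabidopsis thaliana accession Col-0, in 7 groups of 3 arrays, 21 arrays in all. Plants deacclimated for 2, 4, 6, 12 or 24 h had first been held for 3 d at 4 °C and were then returned to 20 °C by day and 18 °C by night. Cold acclimated plants had the same 3 d at 4 °C, and non-acclimated (NA) plants stayed in the warm. All groups were grown first in days of 8 h and later of 16 h, and each array held RNA of 10 pooled rosettes from an independent biological replicate. In the cold the light was 90 μmol m-2 s-1, against at least 200 in the warm, and although all sampling was done by day, after a transfer in the morning, the clock time of each group's harvest was not found in the sources used here, so effects of warming, light and time of day cannot be told apart.

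Plant cells keep proteins folded with several chaperone machines that hand their clients on to each other. HSP101 belongs to the Hsp100/ClpB family, ring-shaped ATPases that pull single polypeptides out of aggregates, and Arabidopsis mutants that lack it do not acquire tolerance to severe heat. HOP proteins hold Hsp70 and Hsp90 together through their tetratricopeptide repeats, ROF2 (also named FKBP65) is a peptidyl-prolyl isomerase that binds Hsp90, and Fes1 proteins, first described in yeast, release nucleotide from Hsp70 so that its cycle can go on. Many such genes are switched on by heat shock factors, best known under strong heat rather than at 20 °C.

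The deposited values are log2 signals, so a difference of 1 is a 2-fold change. Levels were compared between groups for 1 gene at a time and not between genes, since each probe set binds with its own strength. A change was called at an adjusted p under 0.05 from limma together with a log2 change over 1. As these are whole rosettes, a change in the share of a cell type and a change of RNA per cell cannot be told apart.

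HSP101, HOP3 and ROF2 had their lowest level in the cold. All 3 were higher than in cold acclimated plants at each of the 5 times of deacclimation. Like most probe sets, they were not called different from NA plants at any of these times. Fes1B differed from these genes. It was somewhat higher in cold acclimated than in NA plants, rose up to 13.3-fold above cold acclimated plants after 6 h, and after 24 h stood again at the level of the cold.

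HSP101 was at 9.91, 9.72 and 10.41 on the 3 arrays of plants deacclimated for 2 h, at 9.84, 8.99 and 10.26 after 4 h, at 9.32, 8.90 and 8.59 after 6 h, at 8.98, 9.37 and 9.25 after 12 h, and at 9.33, 9.07 and 9.59 after 24 h, against 7.87, 7.69 and 7.65 in cold acclimated plants. No deacclimated array came down to the cold acclimated ones, the nearest being replicate 3 of 6 h. In the cold acclimated plants the disaggregase gene was also below the NA plants, which had 9.31, 9.69 and 9.58. The change relative to cold acclimated plants was 2.27 on the log2 scale after 2 h (95% interval 1.71 to 2.84, 4.84-fold, adjusted p = 2.55e-05, limma), 1.96 after 4 h, 1.20 after 6 h (interval 0.64 to 1.76, adjusted p = 0.00268), 1.46 after 12 h and 1.60 after 24 h, each with a standard error of 0.27. Cold acclimated plants were lower than NA plants by a log2 change of -1.79 (adjusted p = 9.76e-05).

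HOP3, the Hsp70-Hsp90 scaffold, was at 8.64, 8.42 and 10.03 after 2 h, at 9.25, 7.89 and 9.64 after 4 h, at 8.49, 8.04 and 8.23 after 6 h, at 8.30, 8.99 and 9.40 after 12 h, and at 8.81, 8.31 and 8.39 after 24 h, against 5.76, 6.38 and 5.31 in cold acclimated plants. Replicates were far apart early on, with an SD of 0.87 after 2 h and 0.92 after 4 h (n = 3), yet the lowest deacclimated array, replicate 2 of 4 h, was 7.89 and the highest cold acclimated one 6.38. The increase was 3.21 after 2 h (interval 2.27 to 4.16, 9.28-fold, adjusted p = 0.000117, limma), 3.11 after 4 h, 2.44 after 6 h, 3.08 after 12 h and 2.69 after 24 h, with a standard error of 0.45. Cold acclimated plants also lay below the NA plants, which were at 8.66, 9.36 and 8.92, by a log2 change of -3.16 (adjusted p = 6.04e-05), an 8.96-fold difference. Among all 31329 probe sets the increase of HOP3 was the 12th largest after 2 h, the 29th after 4 h, the 117th after 6 h, the 39th after 12 h and the 63rd after 24 h, and its decrease in the cold was the 50th largest.

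ROF2 was at 10.10, 9.79 and 11.03 after 2 h, at 10.37, 9.11 and 10.44 after 4 h, at 9.83, 9.11 and 9.32 after 6 h, at 8.80, 9.63 and 10.05 after 12 h, and at 8.93, 8.94 and 9.05 after 24 h, against 7.50, 7.24 and 7.18 in cold acclimated plants. The 24 h arrays lay close together (SD 0.07), while those of 4 h had an SD of 0.75, and none reached down to the cold acclimated arrays. The increase of this isomerase gene was 3.00 after 2 h (interval 2.24 to 3.75, 7.98-fold, adjusted p = 3.08e-05, limma), 2.67 after 4 h, 2.11 after 6 h, 2.19 after 12 h and 1.67 after 24 h (adjusted p = 0.00182), with a standard error of 0.36. Cold acclimated plants lay below the NA plants, which were at 9.68, 9.70 and 9.51, by a log2 change of -2.32 (adjusted p = 0.000137).

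Fes1B, a gene of the Fes1 family, was at 9.54, 9.76 and 8.96 after 2 h and at 10.61, 10.67 and 10.05 after 4 h. It was at 10.85, 10.88 and 11.05 after 6 h and at 10.38, 10.43 and 10.55 after 12 h. After 24 h it was at 6.94, 7.23 and 7.04, against 7.22, 7.30 and 7.07 in cold acclimated plants. The arrays of 2 to 12 h all lay above the cold acclimated ones, and those of 24 h overlapped with them. The change was 2.22 after 2 h, 3.25 after 4 h, 3.73 after 6 h (interval 3.27 to 4.19, adjusted p = 8.43e-09, limma) and 3.26 after 12 h, with a standard error of 0.22. After 24 h it was -0.13, with an interval of -0.58 to 0.33 (adjusted p = 0.738), which leaves out a 2-fold difference in either direction. The increase was the 106th largest of all probe sets after 2 h, the 19th after 4 h, the 12th after 6 h and the 27th after 12 h.

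**Figure D1:**
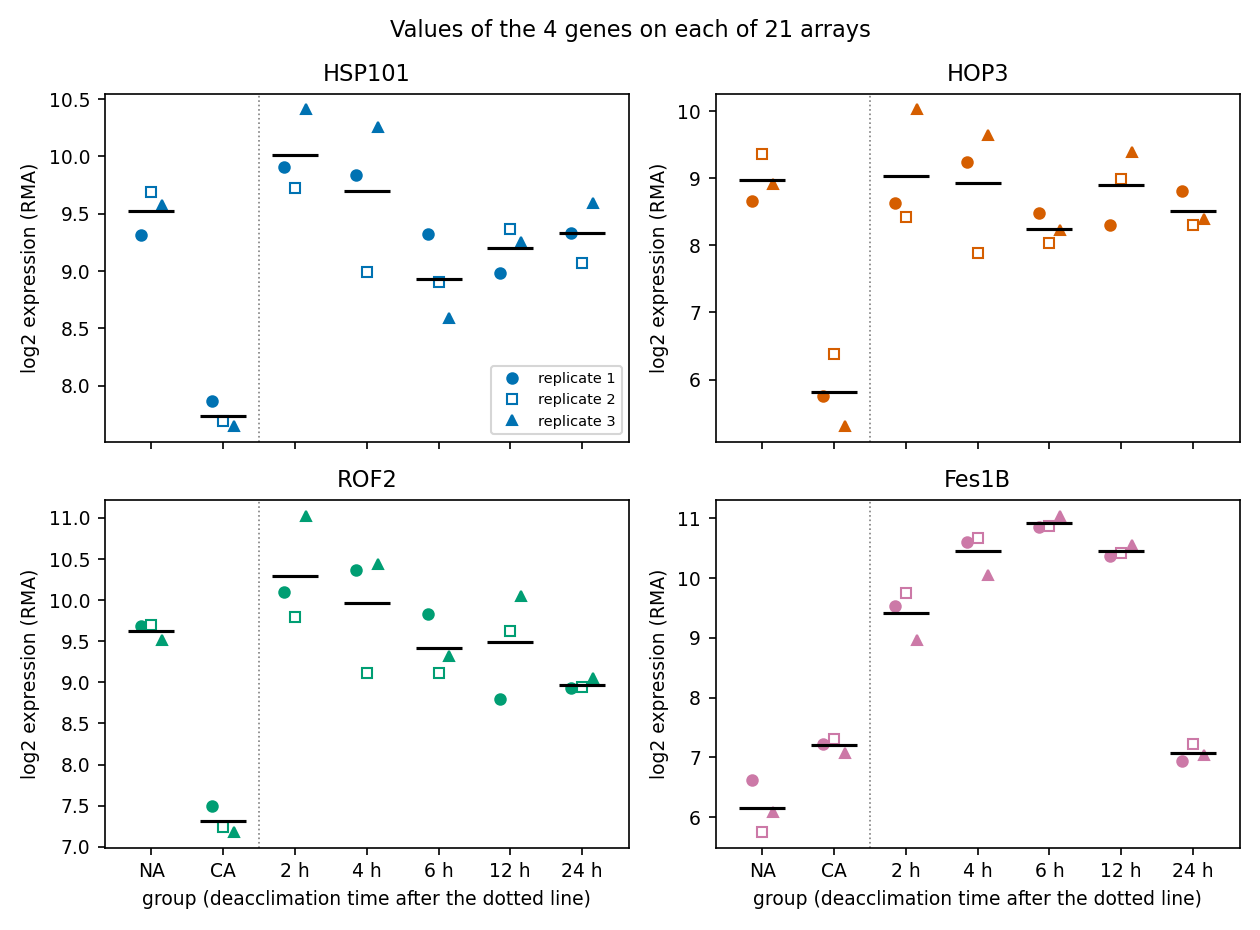
RMA log2 expression of HSP101, HOP3, ROF2 and Fes1B (y axes, a range of its own for each gene) on the 21 arrays of NA plants, cold acclimated plants (CA) and plants deacclimated for 2 to 24 h (x axis), with a symbol per replicate and a line at each group mean. The cold acclimated group is the lowest for HSP101 (7.65 to 7.87), HOP3 (5.31 to 6.38) and ROF2 (7.18 to 7.50), while Fes1B peaks after 6 h (10.85 to 11.05) and is at 6.94 to 7.23 after 24 h.

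Of the 3 genes named by the platform, 3 were called higher than in cold acclimated plants at 2, 4, 6 and 12 h, where 2.88%, 3.22%, 4.17% and 4.41% of all probe sets were called higher. After 24 h 2 of these 3 were called, against 4.15% of all probe sets. HSP101 was called higher at all 5 times, which is given as a description. The other 3 genes were also chosen with earlier results of these data known, so their counts do not measure an excess over these shares. The 5 comparisons share the cold acclimated arrays, so a deviation of those 3 arrays would enter all of them. Of all probe sets, 328 (1.05%) were called higher at all 5 times, and 271 (0.865%) were in addition called lower in cold acclimated than in NA plants, HSP101, HOP3 and ROF2 among them. The Fes1B sequence of calls, higher at 2 to 12 h and not after 24 h, was shared by 119 probe sets (0.380%), and 24 (0.0766%) also had a called decrease between 12 and 24 h.

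In cold acclimated relative to NA plants, of the 3 genes named by the platform, HOP3 and ROF2 were called lower, as were 4.26% of all probe sets, and Fes1B was called higher, as were 3.64%. HSP101 was called lower as well. The Fes1B values were 7.22, 7.30 and 7.07 in cold acclimated plants, against 6.62, 5.75 and 6.08 in NA plants. The arrays did not overlap, and the change of 1.05 (standard error 0.22, adjusted p = 0.00154, limma) lay just over the 2-fold threshold. Without NA replicate 2, the lowest array, it was 0.85 (adjusted p = 0.0114), and without cold acclimated replicate 2 it was 0.99 (adjusted p = 0.0087), both under that threshold.

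The comparison with NA plants asked whether the levels of plants that had never been cold were reached. For HSP101 the differences were 0.49 after 2 h, 0.17 after 4 h, -0.59 after 6 h, -0.32 after 12 h and -0.19 after 24 h. After 6 h the interval was -1.15 to -0.03 (adjusted p = 0.136, limma), and after 24 h it was -0.76 to 0.37, less than a 2-fold difference in either direction. For ROF2 the differences ran from 0.68 after 2 h (interval -0.08 to 1.43) to -0.65 after 24 h (interval -1.41 to 0.10, adjusted p = 0.639). Its 24 h arrays, at 8.93 to 9.05, lay below those of NA plants, at 9.51 to 9.70, without overlap, but the change was not called. HSP101 and ROF2 after 2 h and HOP3 after 6 h also did not overlap with NA plants, without being called. The share of all probe sets whose arrays separate in this way was not computed, here or in the other comparisons. A lack of overlap is therefore a description and no sign of a difference by itself. For HOP3 the differences were between -0.73 after 6 h and 0.05 after 2 h, and with a standard error of 0.45 the interval was -0.90 to 0.99 after 2 h, -1.67 to 0.22 after 6 h and -1.42 to 0.47 after 24 h, the last 2 reaching past a 2-fold difference. None of these 3 genes was called relative to NA plants at any time, and neither were most probe sets. Of all 31329 probe sets, 712, 690, 941, 610 and 12 were called higher than in NA plants from 2 to 24 h. Those called lower were 697, 901, 1119, 830 and 2.

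Fes1B lay far above NA plants while the others were near them. The difference from NA plants was 3.27 after 2 h, 4.30 after 4 h, 4.78 after 6 h (interval 4.32 to 5.23, 27.4-fold, adjusted p = 4.3e-10, limma) and 4.30 after 12 h. It was the 14th largest increase of all probe sets after 2 h and the 10th at 4, 6 and 12 h, and 2.27%, 2.20%, 3.00% and 1.95% of all probe sets were called higher at these times, where 1 of the 3 genes named by the platform was. After 24 h Fes1B was 0.92 above NA plants (interval 0.46 to 1.38), the arrays did not overlap, and the change was not called (adjusted p = 0.178, limma). At this time 14 probe sets, 0.0447% of all, were called in either direction, and none of the 4 genes was among them. The 24 h call of Fes1B turned on NA replicate 1, the highest NA array at 6.62, without which the difference was 1.16 and passed both thresholds (adjusted p = 0.0417).

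**Figure D2:**
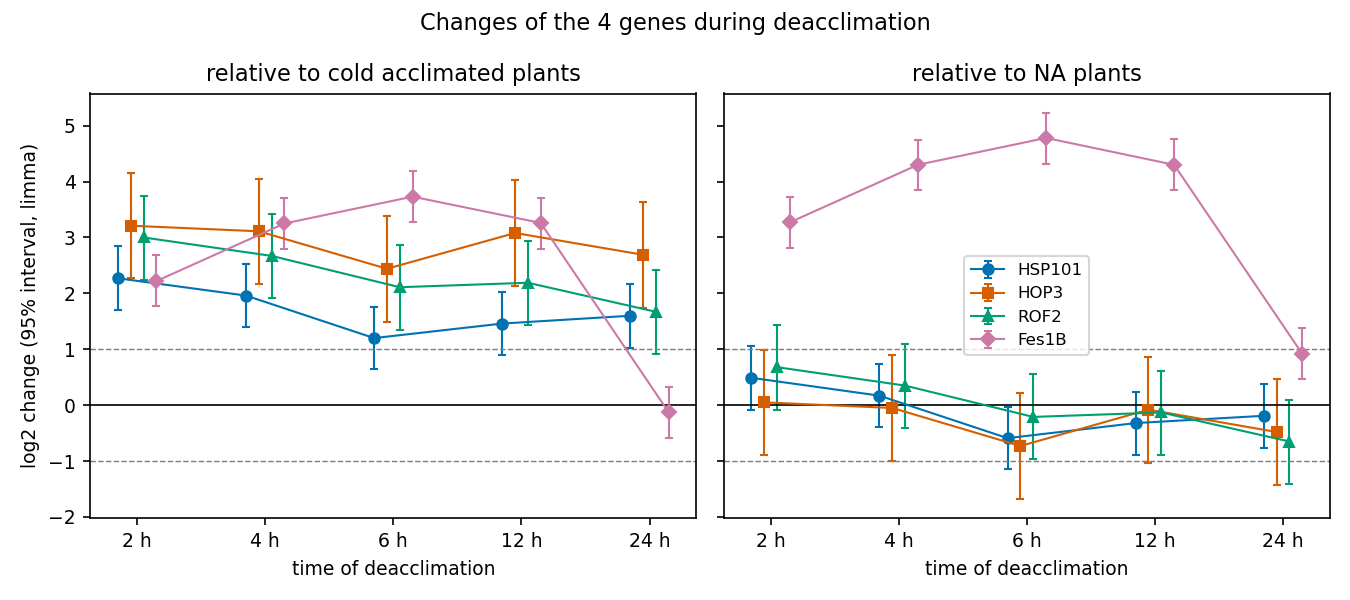
Log2 change of the 4 genes at each time of deacclimation (x axis) relative to cold acclimated plants (left) and to NA plants (right), with 95% intervals from limma; dashed lines mark a 2-fold change. HSP101, HOP3 and ROF2 lie above the dashed line on the left and around 0 on the right, while Fes1B reaches 3.73 on the left and 4.78 on the right after 6 h and falls to -0.13 and 0.92 after 24 h.

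Between successive times Fes1B was the only one of the 4 genes with called changes. It was higher after 4 h than after 2 h by 1.03 (interval 0.57 to 1.48, adjusted p = 0.0464, limma), a step that 0.105% of all probe sets were called to make upwards. This call had an adjusted p of 0.0717 when the whole table was tested, and leaving out replicate 1 or 3 of 2 h or replicate 1 or 2 of 4 h moved it to adjusted p values of 0.0909, 0.162, 0.174 and 0.186. From 4 to 6 h the change was 0.48 and from 6 to 12 h -0.48, neither called. The arrays of neighbouring times did not overlap, which is a description here as well. In these steps 0.0479% and 0.517% of all probe sets were called in either direction. Between 12 and 24 h Fes1B fell by 3.38 (interval -3.84 to -2.93, 10.4-fold, adjusted p = 2.66e-08), the 14th largest decrease of all probe sets in a step where 1.02% were called lower. HSP101 changed by -0.31, -0.76, 0.26 and 0.13 over the 4 steps, and the changes of HOP3 and ROF2 lay between -0.67 and 0.64. The largest of these, HSP101 from 4 to 6 h, had an adjusted p of 0.778 (limma).

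Ordered by their group means, HSP101 and ROF2 were highest after 2 h and next after 4 h, at means of 10.01 and 9.70 for HSP101 and of 10.30 and 9.97 for ROF2. HOP3 was highest after 2 h (9.03), followed by NA plants (8.98), 4 h (8.93) and 12 h (8.90). In all 3 genes the cold acclimated group was last and did not overlap with the group above it, by a gap of 0.72 for HSP101, 1.66 for HOP3 and 1.43 for ROF2. The share of all probe sets with such a gap was not computed, so the gaps are a description. Neighbours higher up in the order overlapped, apart from 6 h and 24 h of ROF2, whose arrays were 0.05 apart. The order of Fes1B was 6 h (10.93), 12 h and 4 h (10.45 each), 2 h (9.42), cold acclimated (7.20), 24 h (7.07) and NA plants (6.15). Here 12 h and 4 h overlapped with each other, as did cold acclimated plants and 24 h, and the other neighbours did not.

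The 5 measured paralogs of these genes, CLPB2, HOP1, HOP2, Fes1A and Fes1C, had no called change relative to cold acclimated plants at any time, nor in cold acclimated relative to NA plants. Of all probe sets 2.88% to 4.41% were called higher at these times, and 4.26% lower and 3.64% higher in cold acclimated than in NA plants. No call among 5 genes is near these shares. The 4 genes were chosen with earlier results of these data known, so their contrast with the paralogs is a description. CLPB2, another member of the ClpB group, stayed between -0.08 and 0.17. Its group means were only 3.94 to 4.19, against array medians of 8.11 to 8.43. A probe set this dim may not show a change, so no conclusion is drawn from its flat course. HOP1 lay between -0.19 and 0.18 and HOP2 between -0.41 and -0.00, so that the intervals of both lay below those of HOP3 at each time. Fes1A was 0.64 higher after 2 h (interval 0.12 to 1.16, adjusted p = 0.0841, limma) and between -0.34 and -0.00 later. Fes1C was at 0.13, 0.39, 0.51, 0.15 and -0.58 from 2 to 24 h, with adjusted p values under 0.05 after 6 h (0.0174) and 24 h (0.00707) but changes under 2-fold. In cold acclimated relative to NA plants Fes1C was at 0.68 (adjusted p = 0.00264), and its value after 24 h relative to 12 h was -0.73 (adjusted p = 0.005), in the direction of Fes1B in both comparisons. Relative to NA plants Fes1C was at 0.81, 1.07, 1.18, 0.83 and 0.10 from 2 to 24 h, called higher after 4 h (adjusted p = 0.000117) and 6 h (adjusted p = 2.8e-05), and the other 4 paralogs were not called in this comparison at any time. The difference between Fes1C and Fes1B was not tested. CLPB3, CLPB4 and ROF1 were not analysed here.

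**Figure D3:**
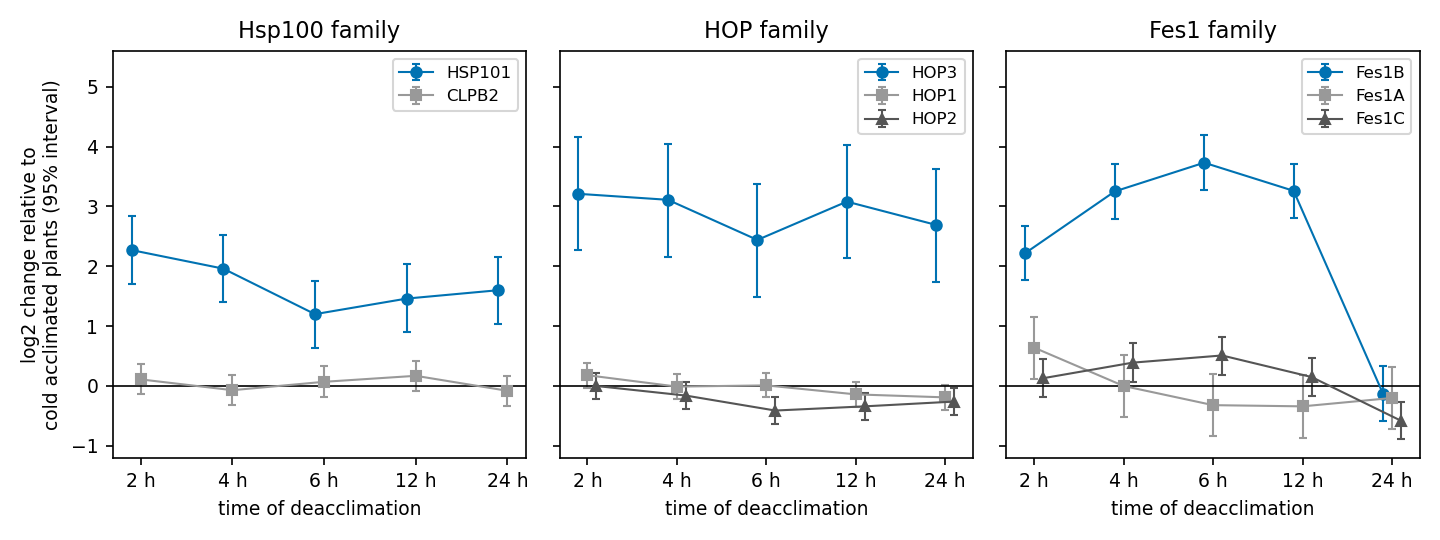
Log2 change relative to cold acclimated plants (y axis, 95% intervals from limma) at each time of deacclimation (x axis) for HSP101, HOP3 and Fes1B in blue and their measured paralogs in grey. CLPB2, HOP1 and HOP2 stay within -0.41 and 0.18, and the CLPB2 probe set is dim (group means 3.94 to 4.19). Fes1C, from 0.51 after 6 h to -0.58 after 24 h, moves over a smaller range than Fes1B.

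Of 98 further chaperone, co-chaperone and heat shock factor genes on 7 lists, 37 were measured, 31 of them named by the platform. Of these 31, 7 were called higher than in cold acclimated plants after 2 h, 7 after 4 h, 4 after 6 h, 5 after 12 h and 4 after 24 h, beside 2.88%, 3.22%, 4.17%, 4.41% and 4.15% of all probe sets. Decreases were called in 1 gene after 12 h and 2 after 24 h, beside 4.76% and 4.37% of all probe sets. The median change of the 31 genes was 0.25 after 2 h and 0.13 after 4 h, beside 0.06 and 0.01 over all probe sets, and between -0.06 and 0.11 later, beside 0.00 to 0.03. In cold acclimated relative to NA plants 9 were called lower and 1 higher, beside 4.26% and 3.64% of all probe sets. None of the 7 Hsp90 genes on the list could be followed here. The lists too were chosen with earlier results of these data known, so the counts are a description.

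The list with the most calls was that of the small heat shock proteins, which hold unfolding proteins until Hsp70 and HSP101 take them over. Of 8 measured, 6 were called higher at 2 and 4 h and 4 at 6, 12 and 24 h, and 6 were called lower in cold acclimated than in NA plants. HSP23.5 (AT5G51440), a mitochondrial member, rose by 3.87 after 2 h, 2.18 after 6 h and 2.33 after 24 h (standard error 0.65). HSP17.4-CIII rose by 2.33 after 2 h, 1.25 after 6 h and 1.81 after 24 h, and HSP15.7 and HSP17.6B-CI were likewise called at all 5 times. HSP17.8-CI rose by 3.08 after 2 h and 1.83 after 4 h and HSP17.6A-CI by 2.63 and 1.46, and neither was called from 6 h on. HSP17.6C-CI and HSP22 were not called. The HSP22 probe set was dim, with group means of 2.86 to 3.32, and may not show a change. Relative to NA plants 2 of the 8 were called higher after 2 h and 1 after 4 h, beside 2.27% and 2.20% of all probe sets.

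Among the co-chaperones beside HOP3, ROF2 and Fes1B, none of the 9 named by the platform was called higher than in cold acclimated plants at any time. Of all probe sets 2.88% to 4.41% were called higher at these times, so none among 9 genes is near that share. Relative to NA plants 1 of them, Fes1C, was called higher, after 4 and 6 h, beside 2.20% and 3.00% of all probe sets. CYP40, a cyclophilin-type partner of Hsp90, fell by 1.27 after 12 h and by 1.31 after 24 h (standard error 0.20, adjusted p = 0.000108 and 9.21e-05, limma). SGT1A, an Hsp90 adaptor in immune signalling, was called lower in cold acclimated than in NA plants (adjusted p = 0.000608, limma), with a change just past the threshold, and was at 0.95 after 2 h, just under it. Of the Hsp70 genes HSC70-2 was called higher after 12 h (1.19, standard error 0.43, adjusted p = 0.046) and lower in cold acclimated than in NA plants (-1.34, adjusted p = 0.0284). BIP1, an Hsp70 of the endoplasmic reticulum, was 1.23 higher in cold acclimated than in NA plants. Of the J proteins, which load clients onto Hsp70, AT2G20560 rose by 1.79 after 2 h and 1.54 after 4 h, and ATJ1 fell by 1.13 after 24 h.

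A further 6 list genes apart from HSP101 were named only through the supplementary list, so that some call was a condition of their being measured. HSFA2, the heat-induced heat shock factor, was 6.31 above cold acclimated plants after 2 h, 4.29 after 4 h, 2.35 after 6 h, 2.28 after 12 h and 3.58 after 24 h (standard error 0.62), and -4.31 in cold acclimated relative to NA plants. HSFA8 was higher after 6 h (1.06) and 12 h (1.30). Its group means were 7.96 in NA plants, 9.18 after 6 h, 9.42 after 12 h and 8.20 after 24 h. It was also called higher than in NA plants at 6 and 12 h and fell between 12 and 24 h with a call, as Fes1B did. J8, a J protein of the chloroplast, was called higher at all 5 times, at 1.42 to 2.62. BIP3 was called higher at each time but 6 h, at 1.48 to 1.93. BAG5 was called after 2 h (1.09) and BAG6 after 4 h (1.13) and 6 h (1.01), both from a family of Hsp70 co-chaperones. BAG6 was also called higher than in NA plants at 2, 4, 6 and 12 h, by 1.44, 1.79, 1.67 and 1.39, and fell by 1.06 between 12 and 24 h (adjusted p = 0.0039, limma), steps in which Fes1B was called in the same directions.

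**Figure D4:**
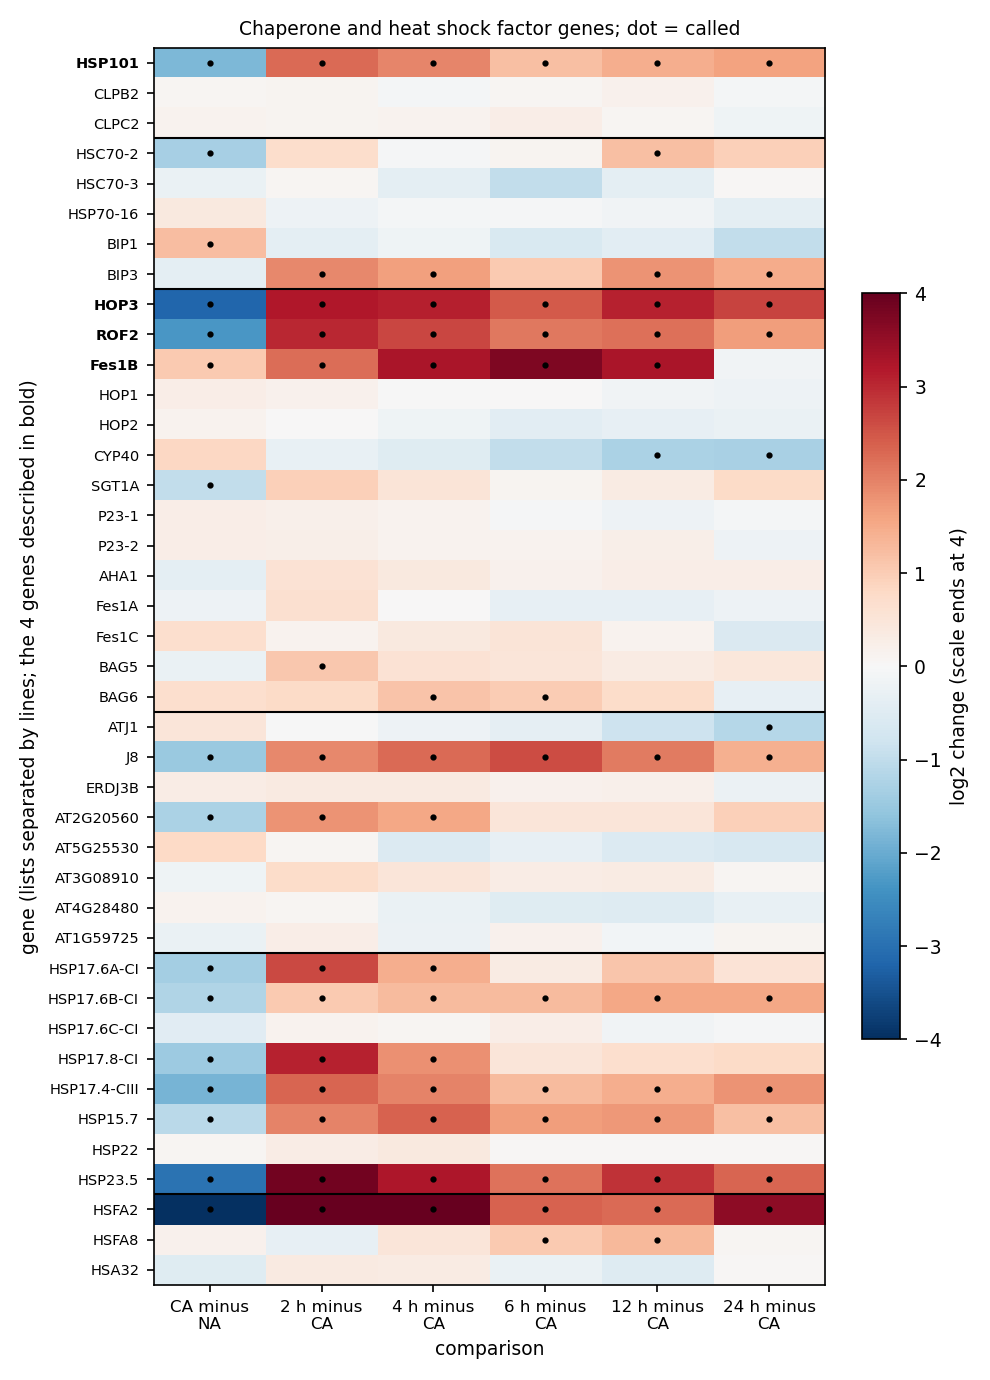
Log2 change (colour, scale ending at 4 in either direction) of the measured genes of the chaperone and heat shock factor lists (rows, lists separated by lines) in cold acclimated relative to NA plants and at each time relative to cold acclimated plants (columns); a dot marks a called change. HSP101, HOP3, ROF2 and Fes1B are in bold; HSFA2 (6.31 after 2 h) exceeds the scale, and most rows of Hsp70 genes and co-chaperones are pale.

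Over the 21 arrays the levels of HSP101, HOP3 and ROF2 ran in parallel, with Pearson's r of 0.932 between HSP101 and ROF2, 0.932 between HOP3 and ROF2 and 0.918 between HOP3 and HSP101. The arrays are grouped by treatment and share 1 normalization, so these values describe the profiles and carry no test. Fes1B correlated with HSP101 at 0.182, with HOP3 at 0.251 and with ROF2 at 0.394. Of 4180 named probe sets whose group means spanned over 1, the most alike to HSP101 was SR45a (AT1G07350, r = 0.964), a splicing regulator of the serine/arginine-rich type, followed by ROF2, AT5G12110 (0.932), HSP23.5 (0.929) and HSFA2 (0.924). HOP3 was most like AT5G12110 (0.958), SR45a (0.941), ROF2, HSP101 and AT4G31351 (0.907), and ROF2 most like HSP23.5 (0.951), SR45a (0.941), AT5G12110 (0.934), HOP3 and HSP101. SR45a and HSFA2 were named through the supplementary list.

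The neighbours of Fes1B were other genes. They were AT1G02300 (r = 0.983), a cathepsin B-like cysteine protease, AT4G14270 (0.970), CCL (AT3G26740, 0.959), AT2G46550 (0.958) and AT3G15040 (0.958), and none of them is on a chaperone list. Like Fes1B, AT1G02300 and AT4G14270 were called higher at 2, 4, 6 and 12 h, with 2.04 and 2.32 after 6 h, and lay at -0.03 and -0.66 after 24 h, neither called. CCL, named for its likeness to a clock-regulated RNA-binding protein gene, was at 1.13, 2.24, 2.54 and 2.50 from 2 to 12 h, all called, and at 0.64 after 24 h, not called. AT2G46550 and AT3G15040 reached 1.24 and 1.05 at most.

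Replicates of 1 group differed in a way that the 3 parallel genes shared. After 2 h and after 4 h replicate 3 was the highest of its group for HSP101, HOP3 and ROF2 and replicate 2 the lowest, and after 12 h replicate 1 was the lowest for all 3. Deviations from the group means correlated at 0.812 between HSP101 and ROF2, 0.859 between HOP3 and ROF2 and 0.778 between HOP3 and HSP101. This was not particular to the 3 genes. Deviations of ROF2 correlated at 0.885 with those of HSP23.5 and at 0.870 with AT5G12110. Those of HSP101 correlated at 0.775 with SR45a and at 0.760 with HSFA2, while HOP3 and AT4G31351 were at 0.342. On 15 of 21 arrays all 3 lay on the same side of their group means, and on 10 of these 15 Fes1B lay on the other side. The deviations of Fes1B correlated at -0.685 with those of HSP101, at -0.582 with HOP3 and at -0.414 with ROF2. With 3 arrays a group the deviations within a group add up to 0 and are not independent, and these values are a description.

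**Figure D5:**
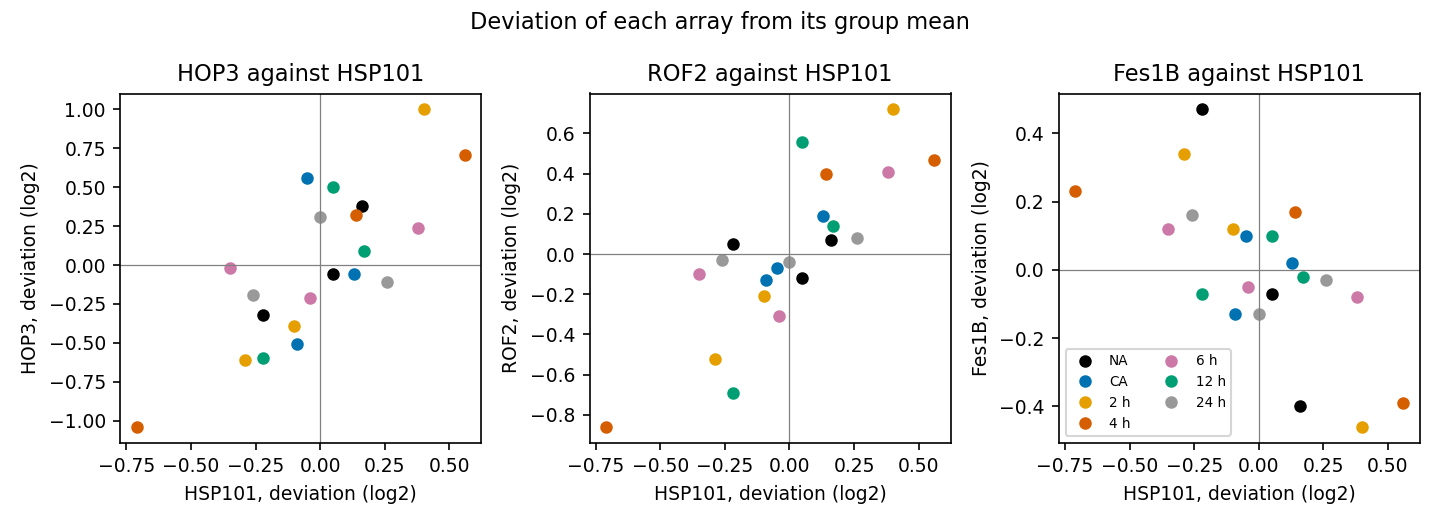
Deviation of each of the 21 arrays from its group mean (log2) for HOP3, ROF2 and Fes1B (y axes) against HSP101 (x axes), coloured by group. HOP3 and ROF2 run with HSP101 (r of 0.778 and 0.812) and Fes1B runs against it (r of -0.685), with arrays of 2 and 4 h at the ends.

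By median and correlation the arrays were alike. Their median log2 values were between 8.11 and 8.28, apart from replicate 1 of 2 h at 8.43, and the lowest correlation of an array with another of its group was between 0.984 and 0.994. Leaving out replicate 1 of 2 h ended none of the calls of the 4 genes relative to cold acclimated plants. The median SD of a probe set was largest after 2 h (0.241) and smallest in cold acclimated plants (0.132). Array weights, lower for arrays that vary more, ran from 0.375 to 2.08. Those of 2 h were 0.375, 0.745 and 0.483. Of the leaf markers 3 of 6 could be followed, 2 of them named only through the supplementary list, so that some call was a condition. LHCB2.1 and RCA lay above the array median on all 21 arrays and LHCB1.1 on 18. The arrays where LHCB1.1 lay below were those of 12 h, at 6.89 to 7.36, against 11.07 to 11.13 in cold acclimated plants. Markers of root and flower were not analysed here.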

How the data were processed

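Whole-transcript array data of 21 rosette samples were used. The authors deposited log2 signals for each probe set, obtained by RMA (background correction, quantile normalization and summary), and these were analysed without further scaling. At the head of the table, 7079 probe sets numbered in steps of 2 and with no gene in the platform annotation were set apart, leaving 31329. The annotation gave a single gene for 16722 probe sets and several for 759, and a supplementary list of the study named 682 further ones. The fold changes and p-values in that list were not used.

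Groups were taken from the sample labels. Differences were tested with limma 3.58.1 (lmFit, eBayes; R 4.3.3), fitting all arrays together with 14 residual and 2.69 prior degrees of freedom, for 15 comparisons. P-values were adjusted by the method of Benjamini and Hochberg over all 31329 probe sets of a comparison. The fit was tested on simulated data. Intervals are 95% intervals of the fit, and the number of arrays limits their precision.

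Genes named are the 4 genes, up to 6 called members of each list, the paralogs, and the 5 probe sets most correlated with each gene. The genes and the lists were chosen with earlier results of these data known. Alternatives were the whole table, a filter on the dimmest 25% of probe sets, other array scalings, a fit of only the 2 groups compared, a replicate block, an intensity trend, array weights, adjustment over all comparisons, and leaving out each array. Gene sequences and promoters were not analysed here.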

Additional observations from a re-analysis of the deposited data

How the results depend on the processing

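Each of the 60 comparisons of the 4 genes was recomputed under 10 other settings and without each array of the groups compared, 960 values in all. Of the values for the 29 called comparisons, 455 kept direction and call and 9 lost the call, all 9 of Fes1B. Of the others 476 stayed as they were, 1 gained a call and 19 changed sign. The Fes1B step from 2 to 4 h was 1.03 in the whole table (adjusted p = 0.0717), 1.03 with only the 2 groups (adjusted p = 0.456) and 1.05 with array weights (adjusted p = 0.0998), and 0.80 to 1.22 without single arrays. In cold acclimated relative to NA plants Fes1B was 0.85 to 1.28 without single arrays, and after 24 h relative to NA plants 0.72 to 1.16. The sign changes concerned uncalled differences near 0. HOP3 after 2 h relative to NA plants was -0.06 with arrays centred on their medians, -0.10 after cyclic loess, -0.04 after quantile normalization, -0.06 with array weights and -0.45 to 0.35 without single arrays. Without single arrays, HSP101 was -0.11 to 0.53 after 4 h relative to NA plants and -0.59 to 0.04 from 2 to 4 h. HOP3 was -0.41 to 0.46 after 4 h and -0.34 to 0.21 after 12 h relative to NA plants and -0.46 to 0.41 from 2 to 4 h. ROF2 was -0.41 to 0.21 after 12 h relative to NA plants, -0.59 to 0.10 from 2 to 4 h and -0.21 to 0.42 from 6 to 12 h. The cause of the lost calls and of the sign changes was not tested. Same-numbered arrays deviated together in 41 of 63 pairs (correlation over 0.1), and 19 of 21 arrays were closest to their own number. The median correlation was 0.135 for pairs of the same number and -0.0587 for other pairs. The main fit did not take the numbers as pairs and so leaves out any effect shared by same-numbered arrays. With a replicate block the 4 genes kept all calls, for example 1.03 for Fes1B from 2 to 4 h (adjusted p = 0.0404).

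Counts of all probe sets moved by over 1.5 times in these cases. With the whole table tested, 908 were lower after 2 h, 1786 after 6 h, 2839 after 12 h and 2160 after 24 h relative to cold acclimated plants, against 502, 1116, 1490 and 1370, and 1752 were higher in cold acclimated than in NA plants, against 1139. With arrays centred on their medians 785 were lower after 2 h. Between 24 h and NA plants the 12 increases and 2 decreases became 0 and 0 with only the 2 groups, 5 and 1 with array weights, 66 and 31 when adjusted over all comparisons, 2 to 19 and 0 to 137 without single arrays, and the decreases 1 without the dimmest 25% of probe sets and 4 with the replicate block. From 2 to 4 h the 33 increases and 18 decreases became 1 and 2 with only the 2 groups, 18 and 8 with array weights, 94 and 93 when adjusted over all comparisons, and 12 to 114 and 9 to 207 without single arrays. The increases were 55 after centring and 55 after cyclic loess, and the decreases 29 with the replicate block and 32 with an intensity trend. From 4 to 6 h the 9 and 6 became 1 and 1 with only the 2 groups and 38 and 29 when adjusted over all comparisons, and were 5 to 7 and 2 to 10 without single arrays. From 6 to 12 h the 63 and 99 became 0 and 0 with only the 2 groups, 174 and 246 with array weights, 112 and 205 when adjusted over all comparisons, and 17 to 167 and 35 to 180 without single arrays.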
